A study of Mus musculus with 6 samples.

Results

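The 36 endothelial and endocardial genes described here mark the cells that line the chambers and vessels of the heart. They were taken by name as markers of endothelium in general, of endocardium, of coronary and capillary vessels and of lymphatic endothelium, and the row of the value table whose only annotated symbol was the member stands for each. All 36 were measured, each by 1 transcript cluster, among 19933 named genes and 28767 clusters in all. The comparison was of 3 mouse hearts labelled knockout (KO) for b1 integrin with 3 hearts labelled wild type (WT), all embryonic and taken at E12.5, on Affymetrix mouse Gene 1.0 ST arrays. The labels name no strain, no allele and no cell type in which the gene was deleted. They call the samples biological replicates without saying if hearts were pooled, and heart here means 1 sample, so that a p-value rests on the spread among 3 samples a group, part of which may be technical.

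The endocardium is the endothelium of the heart chambers, and at mid-gestation it lines the trabeculae, gives rise to cushion mesenchyme and adds cells to the coronary vessels. Endothelial identity rests on ETS family transcription factors and on receptors for vascular endothelial growth factor (VEGF) and angiopoietins, while blood flow acts through Klf2 on genes such as Nos3. β1 integrin, the product of Itgb1, pairs with many α chains into receptors for matrix proteins and is used by endothelial cells to hold their basement membrane.

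Signals are log2 values as deposited, differences are KO minus WT, and values per heart are given in the order of replicates 1 to 3. Array medians ran from 6.65 to 6.71. Itgb1 itself stood at 11.53, 11.42 and 11.65 in KO hearts, against 11.76, 11.80 and 11.78 in WT hearts, with no overlap, and KO signal was 84.0% of WT signal. Where the probes of Itgb1 lie relative to the deleted part is not known, so this is no firm check of the labels. KO replicate 1 stood apart from the other arrays, with a median correlation to them of 0.987 over all clusters, against 0.994 to 0.995 for each of the other 5. It held the highest platelet and erythroid marker signals of the series, and results that rest on it are given without it too.

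Markers that define the lineage lay well above the array median in every heart, and 2 of the 3 did not separate the groups. Pecam1, the junctional adhesion protein CD31, stood at 9.85, 9.54 and 9.60 in KO hearts, against 9.64, 9.64 and 9.49 in WT hearts. Cdh5, VE-cadherin of the adherens junction, stood at 9.70, 9.87 and 9.85 in KO hearts, against 9.90, 9.94 and 9.82 in WT hearts. For both genes the groups overlapped, and KO replicate 1 was the farthest heart, the highest for Pecam1 and the lowest for Cdh5. Plvap, which forms the diaphragms of fenestrae and caveolae, stood at 9.39, 9.37 and 9.21 in KO hearts, against 9.69, 9.85 and 9.61 in WT hearts, and here every KO heart lay below every WT heart. Each of the 36 members had a mean signal above 6.67, the median over all clusters. This is no detection call and does not rank them, because probes differ in brightness.

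No member passed limma's test over all clusters, in which 0% of clusters passed (smallest adjusted p of a member 0.797, of any cluster 0.601). At an unadjusted p under 0.05, which 5.93% of all clusters reached, 3 members were lower and 1 was higher in KO hearts, or 8.33% and 2.78% of the 36, where 2.87% of all clusters were lower and 3.06% higher by the same rule. By overlap, 6 members lay wholly below and 1 wholly above the WT hearts, or 16.7% and 2.78%, against 6.61% and 6.01% of all clusters. Among all named genes, 1 cluster each, 7.18% lay wholly below and 4.95% wholly above. At an unadjusted p under 0.05 by limma, 2.91% of named genes were lower and 2.07% higher. Over the members 21 differences were negative and 15 positive, with a median of -0.06, and over all clusters the median was -0.01. Without KO replicate 1 these counts were 22 and 14, with a median of -0.02. Standard errors ran from 0.08 to 0.35 with a median of 0.11. In whole hearts, fewer endothelial cells and less transcript per cell cannot be told apart.

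**Figure D1:**
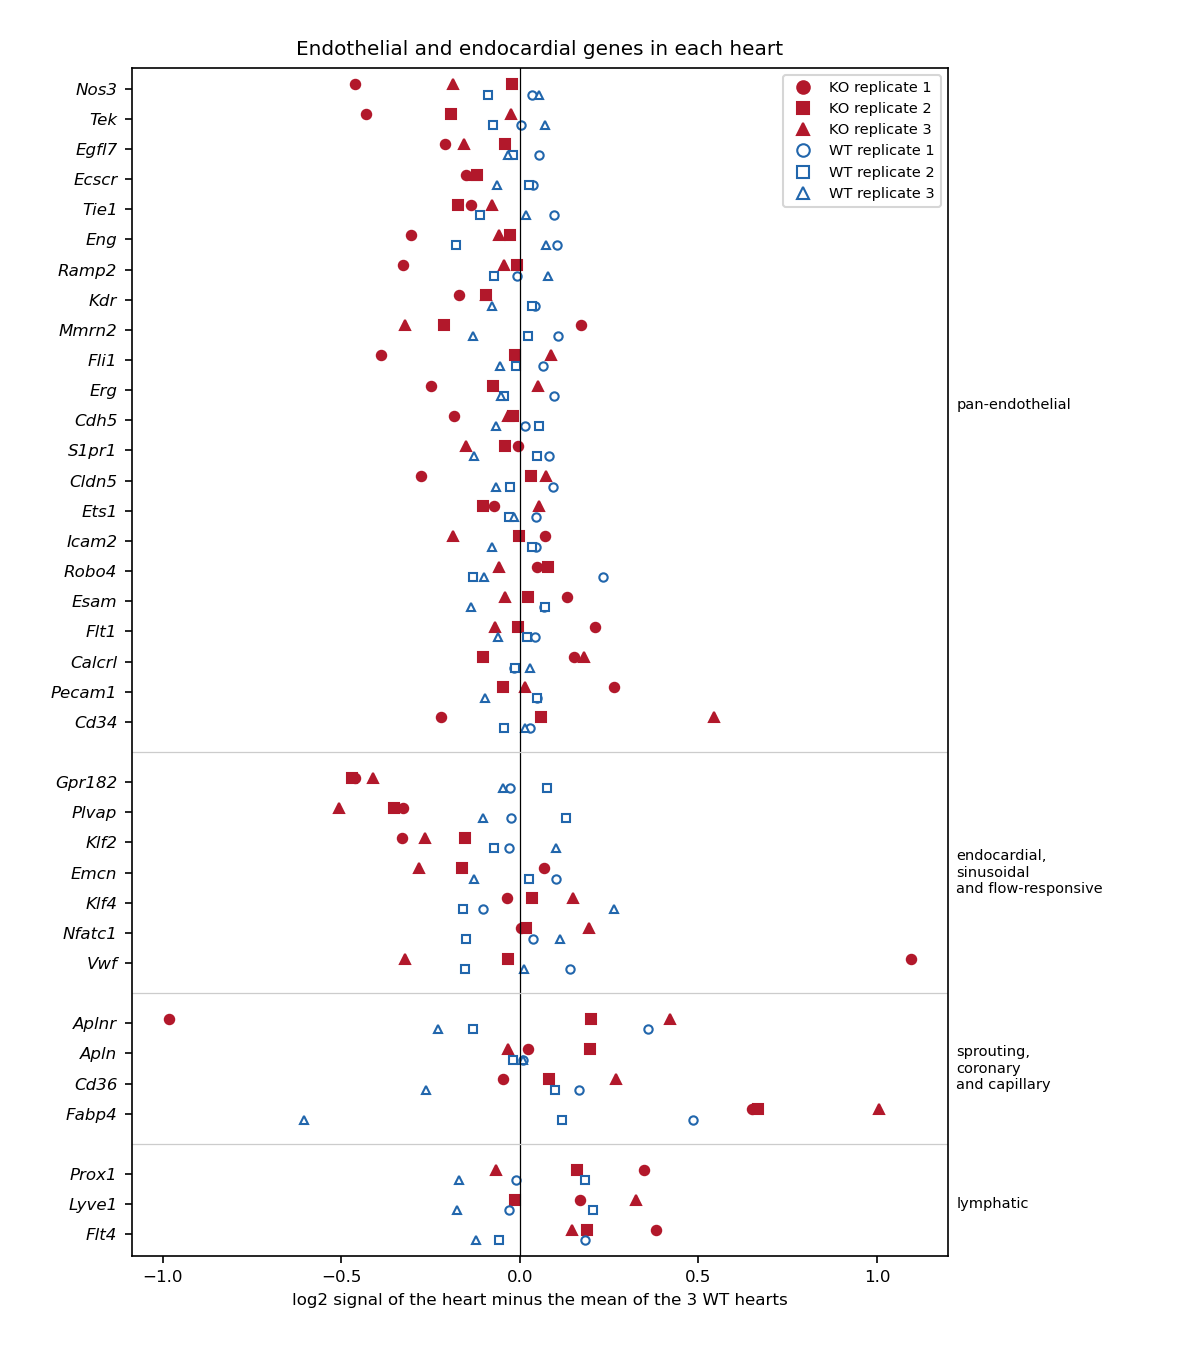
Each of the 36 genes is a row, and the horizontal axis gives the log2 signal of a heart minus the mean of the 3 WT hearts. Filled red symbols are KO hearts and open blue symbols WT hearts, with circles, squares and triangles for replicates 1, 2 and 3. Gpr182, Plvap and Klf2 have all KO hearts left of all WT hearts, Fabp4 has them right, and KO replicate 1 is far out for Vwf and Aplnr.

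Of the 4 members at an unadjusted p under 0.05, 3 were of the endocardial, sinusoidal and flow-responsive class and lower in KO hearts, and the other was Fabp4, which was higher. Gpr182, an atypical G protein-coupled receptor of endothelial cells, stood at 7.87, 7.86 and 7.92 in KO hearts, against 8.30, 8.40 and 8.28 in WT hearts. KO signal was 73.4% of WT signal (-0.45 ± 0.08, SE), and the gap of 0.362 between the groups was wider than the range within either (unadjusted p = 0.00066 and adjusted p = 0.797 by limma). The KO hearts lay within 0.06 of each other, the WT hearts within 0.12. This gene was already known to be among the lowest p of the series when the members were chosen, so its rank here is no separate evidence.

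Plvap, with the values above, averaged 9.32 ± 0.10 in KO hearts and 9.72 ± 0.12 in WT hearts (SD, n = 3 each). Its difference was -0.39 ± 0.10 (SE), or 76.1% of WT signal (limma, unadjusted p = 0.00431, adjusted p = 0.797). Klf2, the transcription factor that endothelial cells induce under laminar flow, stood at 8.11, 8.29 and 8.17 in KO hearts, against 8.41, 8.37 and 8.54 in WT hearts. The highest KO heart lay just under the lowest WT heart, and the difference was -0.25 ± 0.09 (limma, unadjusted p = 0.0275). The exact two-sided permutation p of Gpr182, of Plvap and of Klf2 was 0.1, below which 6 hearts in 2 groups cannot go. Without KO replicate 1, Gpr182 differed by -0.44, Plvap by -0.43 and Klf2 by -0.21, the last at an unadjusted p of 0.0634 by limma.

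These differences were also set against the other endothelial genes of the same heart, a step added after the data were seen. From each heart's signal of a member, the mean of the 22 pan-endothelial members in that heart was taken away. A pan-endothelial member was itself left out of that mean. Gpr182 then stood at -1.256, -1.331 and -1.293 in KO hearts, against -0.999, -0.813 and -0.922 in WT hearts, a difference of -0.38. Plvap differed by -0.33 and Klf2 by -0.18 on this scale, and both still had every KO heart below every WT heart. By this measure 2.58% of all clusters lay wholly below and 10.5% wholly above WT. The pan-endothelial mean itself differed by -0.06 between the groups. Taking it away shrank the difference of each of these 3 genes by that amount, for Klf2 from -0.25 to -0.18. The 3 genes were picked on the same values, so this step is no separate evidence.

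**Figure D2:**
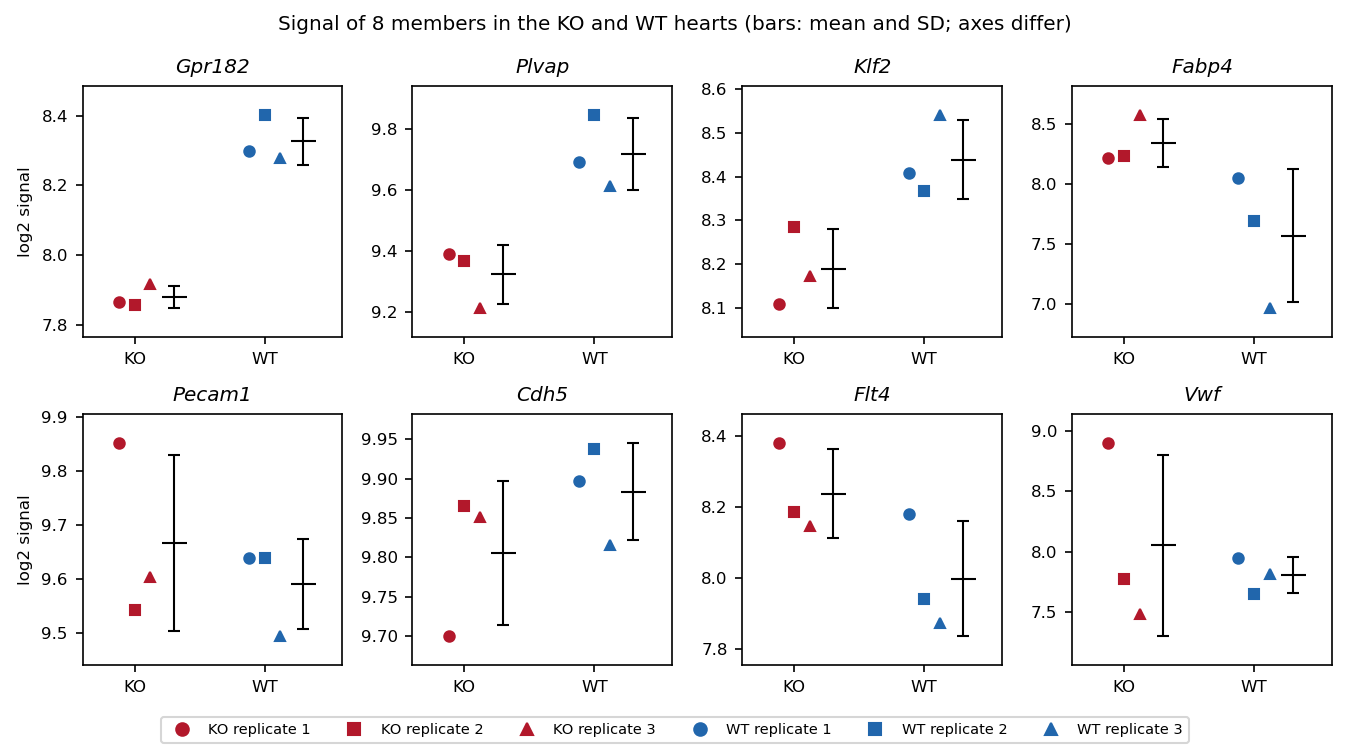
Log2 signal of 8 members in KO hearts (red, left) and WT hearts (blue, right), with 1 symbol per heart and the mean and SD of 3 hearts beside them. Vertical axes differ between panels. The groups are apart for Gpr182, Plvap, Klf2 and Fabp4 and overlap for Pecam1, Cdh5, Flt4 and Vwf.

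Promoter sequence was at hand for 18 members, in 23 stretches of the 250 bases before an annotated start. It is shown for Klf2 and Kdr, whose KO hearts all lay below the WT hearts, and for Flt4, the member of the lymphatic class with the largest difference, to set a flow-responsive promoter beside those of VEGF receptor genes. The sequences are from RefSeq, build GRCm38.p6, written 5′ to 3′ along the gene. Capitals mark matches, on either strand, to GGAA, the core bound by ETS factors, in runs of 4 letters, and to the MEF2 consensus, in the run of 10 letters. The matches in these stretches do not overlap. The Klf2 and Flt4 stretches abut the start of the gene's span. The Kdr stretch belongs to a start inside the gene's span, whose upstream end is at 75979072.
Klf2 (chr8:72318812-72319061, plus strand): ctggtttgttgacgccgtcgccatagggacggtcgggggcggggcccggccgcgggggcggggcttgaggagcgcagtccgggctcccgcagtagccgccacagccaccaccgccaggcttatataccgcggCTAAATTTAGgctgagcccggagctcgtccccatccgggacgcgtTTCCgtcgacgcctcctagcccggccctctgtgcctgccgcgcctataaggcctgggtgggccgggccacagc
Kdr (chr5:75978456-75978705, minus strand): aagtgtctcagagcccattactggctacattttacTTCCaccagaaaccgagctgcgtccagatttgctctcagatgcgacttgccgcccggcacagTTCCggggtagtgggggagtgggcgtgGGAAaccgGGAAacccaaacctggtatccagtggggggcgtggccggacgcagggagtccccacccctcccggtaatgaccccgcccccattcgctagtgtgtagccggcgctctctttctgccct
Flt4 (chr11:49609429-49609678, plus strand): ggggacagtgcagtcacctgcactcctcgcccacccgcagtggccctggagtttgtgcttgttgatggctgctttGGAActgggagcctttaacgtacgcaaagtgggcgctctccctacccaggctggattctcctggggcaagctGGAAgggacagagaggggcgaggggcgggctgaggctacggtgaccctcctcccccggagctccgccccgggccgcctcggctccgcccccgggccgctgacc

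The Klf2 stretch held 1 match to the MEF2 consensus, CTAAATTTAG, at 118 to 109 bases before the start, and 1 ETS core. MEF2 factors are known to drive Klf2 in mouse endothelium. Such a match stood in 2.92% of 32851 stretches and, among the 18 member genes, in those of Klf2 and Erg. The Kdr stretch held 4 ETS cores and the Flt4 stretch 2, but GGAA occurs in 93.4% of all stretches and in 17 of the 18 member genes. Mef2c, a MEF2 factor of endocardium and muscle, stood at 9.75, 9.68 and 9.72 in KO hearts, against 9.59, 9.57 and 9.48 in WT hearts, all KO hearts above (0.17 ± 0.08, limma adjusted p = 0.797).

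The other endocardial and flow-linked members did not separate the groups. Nfatc1, the transcription factor that the endocardium of the cushions needs for valve growth, stood at 8.24, 8.26 and 8.43 in KO hearts, against 8.27, 8.09 and 8.35 in WT hearts, a difference of 0.07 ± 0.10. Klf4, a relative of Klf2 that flow also induces, differed by 0.05 ± 0.13, and by 0.09 without KO replicate 1. Emcn, the sialomucin endomucin of endocardium and veins, differed by -0.12 ± 0.12 and by -0.22 without KO replicate 1, whose 10.40 lay near the top of the WT range of 10.20 to 10.43. Nos3, the endothelial nitric oxide synthase and a Klf2 target, stood at 8.38, 8.82 and 8.65 in KO hearts, against 8.87, 8.75 and 8.89 in WT hearts. Its difference of -0.22 ± 0.12 was -0.11 without KO replicate 1, and the groups overlapped. In the classes compared below, Nos3 was counted as pan-endothelial and Vwf as endocardial, sinusoidal and flow-responsive.

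Vwf, which encodes von Willebrand factor of endothelial cells and platelets, was the member with the widest range among KO hearts. It stood at 8.90, 7.77 and 7.49 in KO hearts, against 7.95, 7.66 and 7.82 in WT hearts. Its difference of 0.25 ± 0.33 was set by KO replicate 1 and became -0.18 ± 0.13 without it. The mean of 6 megakaryocyte and platelet markers was 8.75, 6.96 and 6.71 in the KO hearts, against 6.61, 6.74 and 6.73 in WT hearts, so that the same heart was high. All 6 of these markers were higher in KO hearts, and 2 of them, Ppbp and Pf4, or 33.3%, lay wholly above WT, against 6.01% of all clusters. The median difference of the 6 was 0.77, and 0.13 without KO replicate 1. The part of platelet RNA in the Vwf signal was not tested.

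Among the junction proteins beside Pecam1 and Cdh5, no group separated. Cldn5, the tight junction protein claudin 5, differed by -0.06 ± 0.11, Icam2, an adhesion protein of resting endothelium, by -0.04 ± 0.10 and Esam, an adhesion molecule of endothelial tight junctions, by 0.04 ± 0.10. Each of these differences was within its standard error. Without KO replicate 1, Pecam1 differed by -0.02, Cdh5 by -0.03, Cldn5 by 0.05, Icam2 by -0.09 and Esam by -0.0087.

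The VEGF receptor genes differed in small and unlike ways. Kdr, which encodes VEGFR2, the main signalling receptor for VEGF-A, stood at 9.924, 10.000 and 9.999 in KO hearts, against 10.138, 10.129 and 10.017 in WT hearts, so that KO replicates 2 and 3 lay just under the lowest WT heart. The difference was -0.12 ± 0.08 (limma, adjusted p = 0.803). Flt1, encoding the decoy receptor VEGFR1, differed by 0.05 ± 0.10 and by -0.04 without KO replicate 1. Flt4, encoding the VEGF-C receptor VEGFR3 of lymphatic and early vascular endothelium, stood at 8.38, 8.19 and 8.15 in KO hearts, against 8.18, 7.94 and 7.88 in WT hearts. The highest WT heart lay among the KO hearts, and the difference was 0.24 ± 0.11 (unadjusted p = 0.0699 by limma) or 0.17 without KO replicate 1.

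Both Tie receptor genes had lower means in KO hearts, with overlap. Tek, encoding the angiopoietin receptor Tie2, stood at 10.20, 10.44 and 10.61 in KO hearts, against 10.63, 10.55 and 10.70 in WT hearts. Its difference of -0.22 ± 0.12 was -0.11 without KO replicate 1, the lowest heart. Tie1, a partner of Tie2, differed by -0.13 ± 0.09 and by -0.13 without that heart. Angpt1, the activating ligand of Tie2, stood at 8.74, 8.81 and 8.94 in KO hearts, against 9.04, 9.09 and 9.02 in WT hearts, with every KO heart lower (-0.22 ± 0.09, limma adjusted p = 0.797, and -0.18 without KO replicate 1).

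Of the other surface and secreted proteins, 2 had all KO hearts below all WT hearts by narrow gaps. Egfl7, a secreted regulator of vessel tube formation, stood at 9.45, 9.62 and 9.50 in KO hearts, against 9.71, 9.64 and 9.63 in WT hearts (-0.14 ± 0.09). Ecscr, a chemotaxis regulator of endothelial cells, stood at 8.60, 8.63 and 8.62 in KO hearts, against 8.79, 8.78 and 8.69 in WT hearts (-0.13 ± 0.08, adjusted p = 0.797 by limma). Their differences were -0.10 and -0.13 without KO replicate 1. Eng, the TGF-β co-receptor endoglin, differed by -0.13 ± 0.12, with overlap, and by -0.04 without KO replicate 1.

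Mmrn2, encoding the endothelial matrix protein multimerin 2, stood at 10.04, 9.65 and 9.54 in KO hearts, against 9.97, 9.89 and 9.73 in WT hearts. KO replicate 1 was here the highest of all hearts and the other KO hearts the lowest, and the difference of -0.12 ± 0.14 became -0.27 ± 0.10 without it (unadjusted p = 0.0376 by limma). Without that heart, 0.00348% of all clusters, and 0 members, passed the adjusted test, while 2.85% of clusters had an unadjusted p under 0.05 with a lower and 2.77% with a higher mean, as did 3 lower members, Gpr182, Plvap and Mmrn2, and 1 higher, Fabp4. Cd34, a sialomucin of endothelium and blood progenitors, stood at 9.92, 10.20 and 10.68 in KO hearts, against 10.17, 10.09 and 10.15 in WT hearts, with both the lowest and the highest heart in the KO group. Its difference of 0.13 ± 0.18 was the largest positive one of the pan-endothelial class and was 0.30 without KO replicate 1. Robo4, an endothelial roundabout receptor, differed by 0.02 ± 0.12, and by 0.0097 without KO replicate 1.

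Receptor pairs beside Gpr182 showed no separation. Apln, the peptide ligand made by sprouting coronary endothelium, differed by 0.06 ± 0.09. Its receptor gene Aplnr stood at 7.31, 8.49 and 8.71 in KO hearts, against 8.65, 8.16 and 8.06 in WT hearts. KO replicate 1 was far the lowest of all hearts, and the difference of -0.12 ± 0.35 turned to 0.31 ± 0.19 without it. Calcrl and Ramp2, which together form the adrenomedullin receptor, differed by 0.08 ± 0.10 and -0.13 ± 0.11 (0.04 and -0.03 without KO replicate 1), and S1pr1, the sphingosine-1-phosphate receptor that stabilises vessels, by -0.07 ± 0.09. Adm, the gene of the ligand adrenomedullin, stood at 9.72, 7.78 and 6.99 in KO hearts, against 6.92, 6.72 and 7.03 in WT hearts. The difference of 1.28 ± 0.60 for Adm was 0.50 without KO replicate 1.

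The genes of the ETS factors that uphold endothelial identity differed by less than their standard errors. Erg differed by -0.09 ± 0.10, Fli1 by -0.11 ± 0.13 and Ets1 by -0.04 ± 0.08. Fli1 stood at 8.14, 8.52 and 8.62 in KO hearts, against 8.60, 8.52 and 8.48 in WT hearts, and KO replicate 1 alone lay below the WT range. Without it Fli1 differed by 0.04, Erg by -0.01 and Ets1 by -0.02.

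All 3 lymphatic members had positive differences and none separated the groups. Beside Flt4, Prox1, a transcription factor of lymphatic endothelium that cardiomyocytes also express, differed by 0.15 ± 0.14 and by 0.05 without KO replicate 1. Lyve1, a hyaluronan receptor of lymphatic endothelium and of some macrophages, stood at 7.70, 7.52 and 7.85 in KO hearts, against 7.50, 7.73 and 7.35 in WT hearts (0.16 ± 0.13). This difference was 0.25 without KO replicate 2, 0.08 without KO replicate 3, 0.26 without WT replicate 2, 0.07 without WT replicate 3 and 0.0074 with array weights. The macrophage markers had a mean of 6.91, 7.16 and 7.05 in KO hearts, against 6.92, 6.91 and 6.80 in WT hearts. Of these 13 markers 12 were higher and 2, or 15.4%, lay wholly above WT, against 6.01% of all clusters. These were Mpeg1 (0.73 ± 0.12) and Csf1r (0.20 ± 0.10), while Fcer1g differed by 0.34 ± 0.13 and Lyz2, the lysozyme gene, by -0.40 ± 0.17, both with overlap. The WT means of Mpeg1 and Fcer1g (5.74 and 6.63) lay below the median over all clusters, so the sizes of their differences are uncertain. The part of macrophages in the Lyve1 signal was not tested.

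Fabp4, a fatty acid chaperone of capillary endothelium that macrophages also make, was the largest difference of the 36 genes and the only one with all KO hearts above all WT hearts. It stood at 8.22, 8.23 and 8.57 in KO hearts, against 8.05, 7.68 and 6.96 in WT hearts. The WT hearts spread over 1.09, and the lowest KO heart lay 0.165 above the highest WT heart. The difference was 0.77 ± 0.26, or 1.71-fold (limma, unadjusted p = 0.0181, adjusted p = 0.797, exact permutation p = 0.1). It was 0.84 without KO replicate 1 and 0.47 without WT replicate 3. Cd36, the fatty acid transporter of capillaries, macrophages and platelets, differed by 0.10 ± 0.14, with overlap, and by 0.18 without KO replicate 1.

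**Figure D3:**
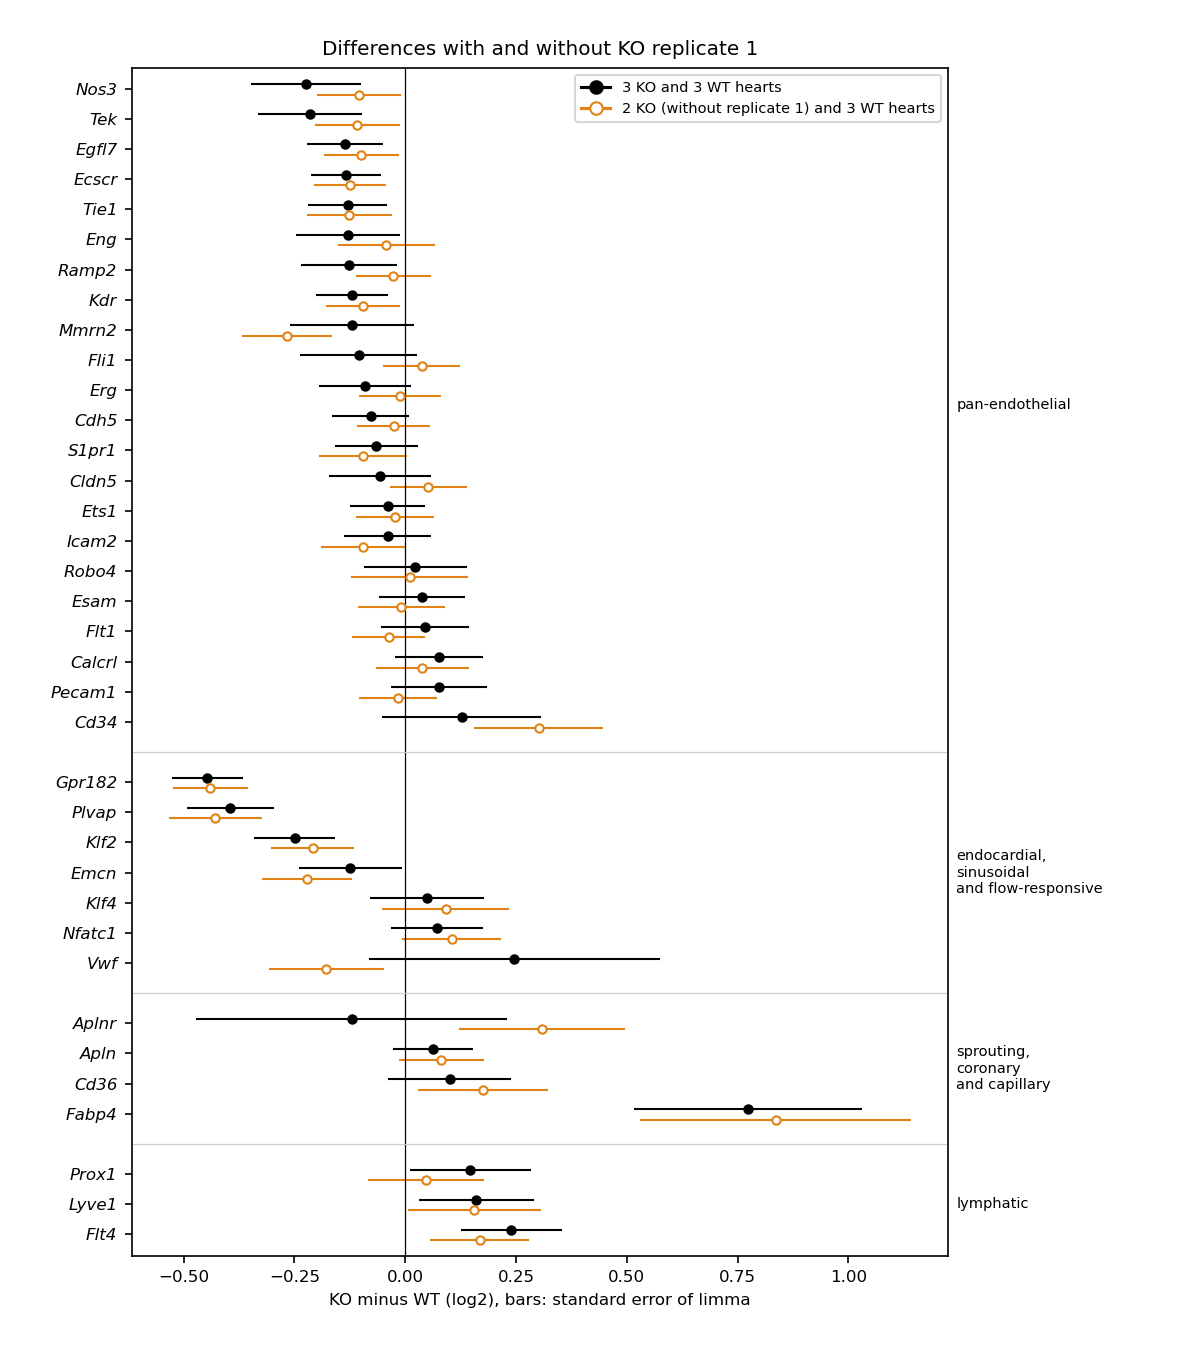
KO minus WT difference on the log2 scale for each of the 36 genes, with bars for the standard error of limma, from all 6 hearts (black, filled) and without KO replicate 1 (orange, open). Gpr182, Plvap, Klf2 and Fabp4 keep their sign without that heart, Klf2 with a smaller difference, while Vwf, Aplnr, Fli1, Cldn5, Pecam1, Flt1 and Esam cross 0.

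Set side by side, the pan-endothelial members lay slightly lower and the subtype markers spread to both sides. Of 22 pan-endothelial members 16, or 72.7%, had negative and 6 positive differences. Of all clusters 53.4% were negative, and of all named genes, 1 cluster each, 55.8%. The differences ran from -0.22 to 0.13 with a median of -0.08. By limma 0 of the 22 had an unadjusted p under 0.05, which 5.93% of all clusters reached. Yet 3 of the 22, Kdr, Egfl7 and Ecscr, or 13.6%, lay wholly below WT, against 6.61% of all clusters and 7.18% of named genes. The pan-endothelial mean per heart was 9.12, 9.19 and 9.21 in KO hearts, against 9.30, 9.22 and 9.20 in WT hearts, and the groups overlapped. Without KO replicate 1, the lowest, the median was -0.03. Of 14 subtype markers 5 had negative and 9 positive differences, from -0.45 to 0.77 with a median of 0.07. All 4 members at an unadjusted p under 0.05 by limma were subtype markers. They were 21.4% of the 14 lower and 7.14% higher, against 2.87% and 3.06% of all clusters. The same genes were the subtype markers with no overlap, 3 wholly below and 1 wholly above WT. Without KO replicate 1, 2 subtype markers were lower and 1 higher at that threshold, and 1 pan-endothelial member was lower. The members were chosen with earlier results of these data known, so these shares are no evidence of a change in subtype markers. The difference between the classes was not tested.

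Within the subtype markers the medians of the classes differed, each over few genes. The 7 endocardial, sinusoidal and flow-responsive genes had a median difference of -0.12, and -0.21 without KO replicate 1. The 4 sprouting, coronary and capillary genes had a median of 0.08, and 0.24 without that heart, and the 3 lymphatic genes a median of 0.16 in both cases. The sprouting and capillary class varied among the hearts of each group, with means of 8.14, 8.51 and 8.64 in KO hearts, against 8.48, 8.24 and 7.96 in WT hearts. The endocardial class had 4 lower and 3 higher genes and holds Gpr182, known to be low beforehand. Its means were 8.52, 8.36 and 8.32 in KO hearts, against 8.53, 8.48 and 8.55 in WT hearts, with overlap. Lymphatic means were 8.694, 8.505 and 8.529 in KO hearts, against 8.440, 8.503 and 8.237 in WT hearts, apart by a very narrow gap.

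Further genes of the endothelial programme, listed beside the members, gave 0 calls over all genes. The counts of genes wholly above or below WT in these lists stand beside 6.01% wholly above and 6.61% wholly below over all clusters. Of 18 other endothelial genes 8 were higher and 10 lower (median -0.01), and 3, or 16.7%, lay wholly below WT. These were Shank3 (-0.34 ± 0.11), Clec14a (-0.34 ± 0.15), an endothelial C-type lectin, and Rasip1 (-0.16 ± 0.08), which is needed for vessel lumens. Arhgef15 differed by -0.29 ± 0.12 with overlap. Without KO replicate 1, Shank3 stood at -0.25, Clec14a at -0.17 and Arhgef15 at -0.20.

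Angiogenic ligands and co-receptors, 20 genes, were higher for 15 and lower for 5 (median 0.17), with 2 wholly above and 1, Angpt1, wholly below WT. Those above were Pgf, the placental growth factor gene and a ligand of VEGFR1 (0.66 ± 0.32, and 0.23 without KO replicate 1), and Angpt2, the context-dependent ligand of Tie2 (0.19 ± 0.10), which is named because its values were seen. Pdgfb, by which endothelium recruits pericytes, differed by 0.28 ± 0.10 with overlap. Of 17 endothelial transcription factors outside the members 11 were higher and 6 lower (median 0.02), and 3 lay wholly above WT. These were Mef2c, given above, Hey1, a Notch target (0.30 ± 0.09), and Sox17 (0.49 ± 0.09), a factor of arterial endothelium and endocardium, while Foxc2 differed by 0.28 ± 0.15 with overlap. Without KO replicate 1, Hey1 differed by 0.24 and Foxc2 by 0.19. The WT means of Angpt2 and Sox17 (5.77 and 6.19) lay below the median over all clusters, so the sizes of their differences are uncertain. Of 18 genes of Notch and ALK1 signalling 10 were higher and 8 lower (median 0.03), and 2, Rbpj and Bmpr2, lay wholly above WT, the second of them named after its values were seen. The inhibitory Smad gene Smad7 differed by 0.54 ± 0.20, the Notch ligand gene Dll1 by -0.29 ± 0.12, the Notch effector gene Rbpj by 0.20 ± 0.09 and the Notch target Hes1 by 0.21 ± 0.12. Without KO replicate 1 these differences were 0.38 for Smad7, -0.23 for Dll1, 0.13 for Rbpj and 0.12 for Hes1.

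**Figure D4:**
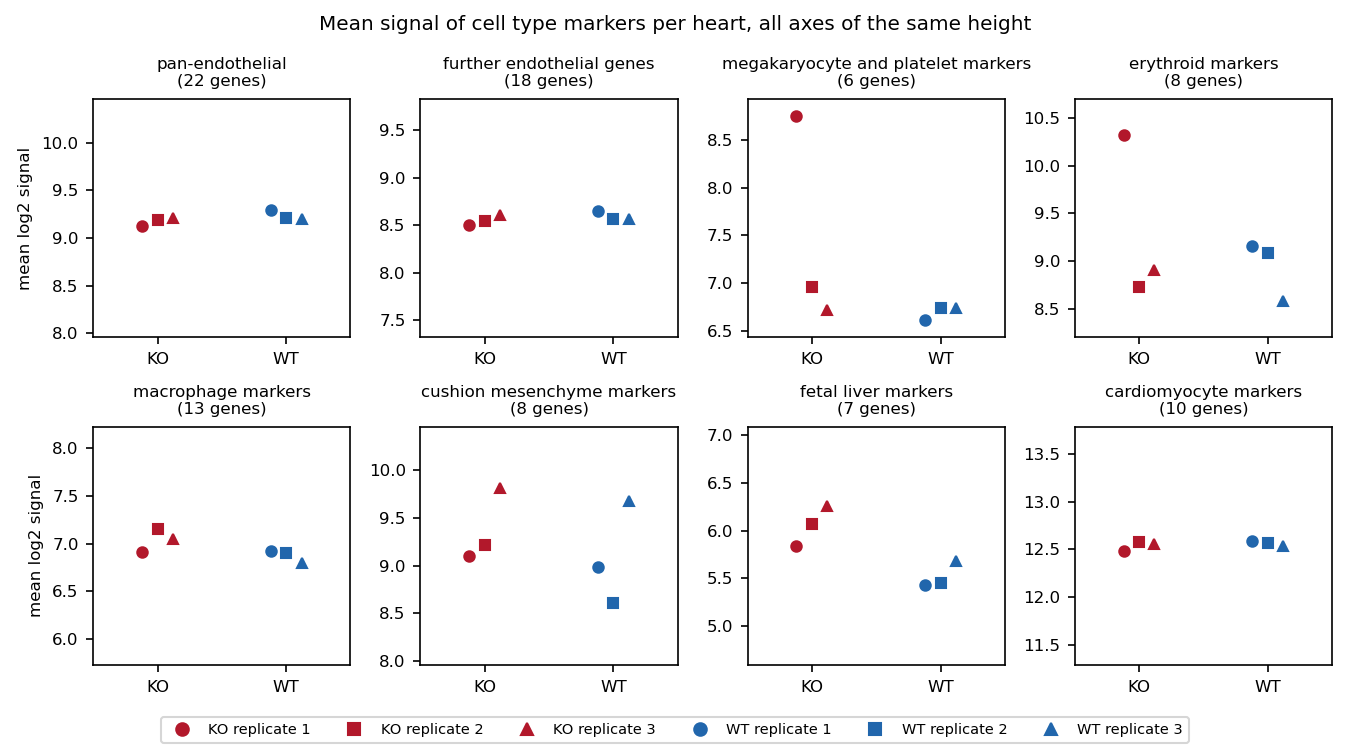
Mean log2 signal per heart of the pan-endothelial members, of other endothelial genes and of markers of 6 other cell types, in KO hearts (red, left) and WT hearts (blue, right). All vertical axes have the same height. Endothelial and cardiomyocyte means lie close together in all hearts, KO replicate 1 is high in platelet and erythroid markers, and the fetal liver markers are higher in the KO hearts.

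Markers of other cells that a dissected heart can hold varied between hearts, except those of cardiomyocytes. The 10 cardiomyocyte markers, 4 higher and 6 lower, had means of 12.49 to 12.58 in KO hearts and 12.53 to 12.59 in WT hearts. The 8 erythroid markers, all with positive differences, reached 10.32 in KO replicate 1, against 8.73 and 8.91 in the other KO hearts and 8.58 to 9.16 in WT hearts, and their median difference of 0.42 became -0.10 without that heart. The 8 cushion mesenchyme markers all had positive differences and ran from 9.10 to 9.81 in KO hearts and from 8.61 to 9.67 in WT hearts. The 8 epicardial markers, 5 higher and 3 lower, ran from 8.55 to 8.77 in KO hearts and from 8.57 to 8.59 in WT hearts, and the 8 smooth muscle and pericyte markers, 6 higher and 2 lower, from 8.64 to 9.16 in KO hearts and from 8.46 to 8.77 in WT hearts.

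Fetal liver markers separated the groups. Of 7 genes 6 were higher and 3, or 42.9%, lay wholly above WT, against 6.01% of all clusters. The mean of the 7 was 5.84, 6.07 and 6.25 in KO hearts, against 5.43, 5.45 and 5.68 in WT hearts, with no overlap. Albumin, Alb, stood at 5.83, 6.14 and 7.15 in KO hearts, against 4.38, 4.89 and 5.13 in WT hearts (1.57 ± 0.34), and Afp differed by 1.20 ± 0.30 and Ahsg by 0.48 ± 0.10. The WT means of Alb, Afp and Ahsg (4.80, 5.47 and 4.93) lay below the median over all clusters, and whether they are above background is not known, so the sizes of these differences are uncertain. Several members, among them Gpr182, Plvap and Lyve1, are also expressed in liver sinusoids. In the KO hearts, where the liver markers were higher, Gpr182 and Plvap were lower and Lyve1 had a higher mean with overlap, and the part of liver tissue in the member signals was not tested.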

How the data were processed

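The authors deposited 1 table of log2 values, made with RMA per the submitters' processing notes, with 1 value per transcript cluster of the array. RNA was Trizol-extracted and biotin-labelled, per the labels' protocols. The RMA version, annotation and filters are not stated in the sources used here, and RMA compresses differences of dim clusters. Depth has no counterpart on arrays, and the number of arrays limits the precision.

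Each of the 6 columns matched 1 sample. Clusters were named by a platform annotation: 21776 had 1 symbol, 1618 several and 5373 none, and 21686 of the first kind were updated by Entrez identifier to GRCm38.p6 symbols. A gene with several clusters is given by the brightest, which concerned 0 members. KO was compared with WT by limma 3.58.1 in R 4.3.3 (lmFit, eBayes) on all 28767 clusters, two-sided, with no covariate, filter or pseudocount, and Benjamini-Hochberg adjustment over all clusters at 0.05. The fit was tested on simulated data.

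The members and lists were chosen with earlier results of these data known, so lists are described by counts and medians without a test. All 36 members are named. Of the other lists (141 of 150 entries measured) up to 4 genes of lowest p are named. Roles of genes are background knowledge. Alternatives were leaving out clusters under the median level, testing 1 cluster per gene, averaging a gene's clusters, quantile, loess and median scaling, a robust variance with trend, weights per array, a replicate block, leaving out each heart and, added after the data were seen, signal relative to the pan-endothelial mean.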

Additional observations from a re-analysis of the deposited data

How the results depend on the processing

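No member passed the test over all clusters in any of the 15 alternative fits, with a smallest adjusted p of a member of 0.159 (limma with array weights, Gpr182). Without KO replicate 1, 1 cluster outside the members passed. The difference of Gpr182 ran from -0.47 to -0.41 over these fits. Of the 36 members, 17 kept a negative and 4 a positive difference in all 15 fits, among them Plvap (-0.45 to -0.33), Klf2 (-0.30 to -0.16) and Fabp4 (0.47 to 1.02). Not all of these fits could turn a sign. Leaving out dim clusters, 1 cluster per gene, averaging a gene's clusters, the robust variance and the replicate block leave each member's difference as it was. Those fits bear on the p-values only. The pan-endothelial median of -0.08 ran from -0.112 to -0.032 when 1 heart was left out, with -0.032 without KO replicate 1. The other 15 members turned their sign in at least 1 fit. When 1 heart at a time was left out, the differences ran from -0.017 to 0.138 for Pecam1, -0.038 to 0.103 for Flt1, -0.031 to 0.078 for Esam, -0.18 to 0.53 for Vwf, -0.0037 to 0.13 for Nfatc1, -0.031 to 0.181 for Klf4, -0.0052 to 0.11 for Apln and -0.39 to 0.31 for Aplnr. They ran from -0.122 to 0.053 for Cldn5, -0.201 to 0.037 for Fli1, -0.043 to 0.139 for Robo4, -0.080 to 0.302 for Cd34, -0.095 to 0.034 for Icam2 and -0.030 to 0.183 for Cd36. With array weights Pecam1 stood at -0.028, Flt1 at -0.0042, Aplnr at 0.11, Cldn5 at 0.0039 and Calcrl at -0.035. The replicate numbers are shared by the groups, but over all clusters same-numbered hearts did not deviate together (correlations -0.04, -0.03 and -0.06). These values do not speak for single lists. The cushion mesenchyme mean was highest in replicate 3 of both groups, at 9.81 in KO and 9.67 in WT. A replicate effect shared by part of the genes was not tested. With the replicate block 0 members passed, and Gpr182 differed by -0.45, which the block cannot change in groups of equal size. The causes of these shifts were not tested.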

Other observations

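Relative to the mean of the pan-endothelial members of the same heart, itself left out, 5 of the 36 members lay wholly below and 2 wholly above WT. Relative to the mean of all 22 pan-endothelial members, 2.58% of all clusters lay wholly below and 10.5% wholly above. Beside Gpr182, Plvap, Klf2 and Fabp4, these were Kdr, Ecscr and Flt4, and Egfl7 no longer separated the groups. Flt4, which overlapped on the array scale, stood at -0.74, -1.0 and -1.06 in KO hearts, against -1.12, -1.28 and -1.33 in WT hearts, a difference of 0.30. Fabp4 stood at -0.91, -0.96 and -0.64 in KO hearts, against -1.25, -1.53 and -2.24 in WT hearts. Kdr differed by -0.06 and Ecscr by -0.07 on this scale. This measure was chosen after the data were seen, and no test was made of it.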
